A study of Mus musculus with 12 samples.

Results

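The miR-15/16 seed family comprised 6 of the 375 miRNA assays on the array, mmu-miR-15a, mmu-miR-15b, mmu-miR-16, mmu-miR-195, mmu-miR-322 and mmu-miR-497. The rule for the members was the assay name, with no measured value in it, and each was measured on all 12 arrays. The RNA came from primary endothelial cells of the lungs of male wild type C57BL/6N mice, 6 to 10 weeks old, with 3 mice pooled for each isolation. Cells were selected with CD144 and CD31 magnetic beads, grown to confluence and then kept in medium with reduced serum, which the control cells shared. The control group was unstimulated, the Tri-DAP group received the NOD1 ligand Tri-DAP (TD in the labels), and the MDP group received the NOD2 ligand MDP, each at 10 µg/mL for 6 hours. 4 arrays were run for each group. Each array carries a number from 4 to 15 in the labels, which is used here as its name. The paper describes 4 independent isolations of cells, but the labels do not say which arrays share one. The main fit therefore paired no arrays, and within a group its p-values measure the spread between these arrays. That spread holds any difference between isolations, which a paired test would set aside.

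MiRNAs guide a silencing complex to mRNAs, mostly through pairing of the seed, the bases near the 5′ end. miRNAs with one seed can bind overlapping sets of targets, so a family is often read together. The miR-15/16 family is known for holding back the cell cycle, with cyclins D1 and E1 and the survival factor Bcl2 among its established targets. In endothelial cells, miR-16 and the human counterpart of miR-322 are known to act on the VEGF and FGF pathways and on angiogenesis. NOD1 and NOD2 are cytosolic receptors for fragments of bacterial peptidoglycan, and the array study asked which endothelial miRNAs change after either receptor is stimulated.

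The mature sequences are shown because the shared seed is what defines the family. They are the RefSeq entries on GRCm38.p6 for the 5p arm of each hairpin, written 5′ to 3′ with the seed, bases 2 to 8, in capitals. The deposited tables name the assays and do not give the arm or the probe sequence, so the match rests on the name.
miR-15a-5p: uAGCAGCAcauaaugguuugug
miR-16-5p: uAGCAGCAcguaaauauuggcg
miR-15b-5p: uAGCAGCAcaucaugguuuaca
miR-195a-5p: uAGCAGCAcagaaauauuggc
miR-497a-5p: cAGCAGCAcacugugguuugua
miR-322-5p: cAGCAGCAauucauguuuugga
miR-503-5p: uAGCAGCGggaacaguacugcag
miR-103-3p: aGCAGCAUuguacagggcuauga
The capitals are identical in all 6 members. miR-503, which lies next to miR-322 in the genome, is shown because it shares 6 of these 7 bases and differs in the last. miR-103 is shown because it carries the same bases starting at base 1, so that its own seed is shifted by 1 position. A scan of the 282 mouse assays that matched a RefSeq mature sequence by name found AGCAGC starting at base 1 or 2 in the 6 members and in miR-503, miR-103 and miR-107 alone. Outside the seed the members diverge. miR-16 and miR-195 are the most alike, with the same base at 19 of 21 positions, and miR-15a and miR-15b share 18 of 22, while miR-16 and miR-497 share 11 of 22. Whether the assays tell miR-16 from miR-195 was not tested.

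The family is spread over 4 places in the mouse genome (GRCm38.p6). miR-15a (chr14:61632075-61632096, minus strand) and a copy of miR-16 (chr14:61631936-61631957, minus strand) lie within the long noncoding RNA gene Dleu2. miR-15b (chr3:69009775-69009796, plus strand) and a copy of miR-16 with the same mature sequence (chr3:69009918-69009939, plus strand) lie within Smc4, which encodes a condensin subunit. The miR-16 assay cannot tell the copies apart. miR-195 (chr11:70235062-70235082, plus strand) and miR-497 (chr11:70234730-70234751, plus strand) lie side by side. miR-322 (chrX:53054306-53054327, minus strand) lies in a cluster with miR-503, miR-351, miR-542 and miR-450 in the noncoding RNA gene C430049B03Rik.

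The arrays report for each assay a threshold cycle (Ct), the point of the PCR where fluorescence rises above a set limit. The more RNA, the lower the Ct, and 1 cycle equals 1 on the log2 scale. The lung cells carried the endothelial miR-126-3p at a mean Ct of 19.7, the rank 6 of 320 assays measured at least once, and miR-126-5p at 21.3. Of the 4 leukocyte miRNAs, miR-150 and miR-223 were measured on all 12 arrays, at mean Ct values of 29.8 and 31.3, miR-142-3p on 9 at 34.3 and miR-142-5p on 2 at 35.1. The mural and fibroblast miRNAs miR-143, miR-145, miR-199a-3p and miR-214 were measured on all 12 arrays. Of the muscle miRNAs, miR-1 was measured on 8 arrays, miR-133a on 6 and miR-133b on 1. The summed level of the mural and fibroblast miRNAs, as log2 relative to the mean of the 174 assays complete on all arrays, was 3.54 ± 2.22 in control cells, 3.54 ± 2.17 after Tri-DAP and 3.38 ± 2.14 after MDP, and that of both miR-126 arms was 9.41 ± 0.90, 9.54 ± 0.88 and 9.36 ± 0.84 (SD, n = 4 each), so neither separated the groups. The summed level of the muscle miRNAs was lower after Tri-DAP, from −6.34 to −3.66 on 4 arrays, without overlap with control cells, from −3.06 to −0.19 on 3 arrays, or MDP, from −2.65 to 0.97 on 3 arrays. By an unadjusted limma p below 0.05, miR-1 differed between MDP and Tri-DAP by 4.87 with an SE of 1.68, from 3 and 2 arrays (Benjamini-Hochberg adjusted p from limma over all miRNAs = 0.998). Between MDP and Tri-DAP, miR-133a differed by −0.05, from 2 and 3 arrays. The sums hold whichever muscle assays were measured on an array, and miR-1 was measured on 2 Tri-DAP, 3 control and 3 MDP arrays. They therefore do not compare the same assays between groups. The part of muscle RNA in the members' differences was not tested. Between 231 and 254 miRNAs were measured per array. U6, the RNA used for normalization, ranged from a mean Ct of 18.3 on array Tri-DAP 14 to 21.6 on array Tri-DAP 8, and its 4 wells on one array had an SD of up to 2.05 cycles.

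miR-16 had the earliest signal of the family. Its mean Ct over the 12 arrays was 22.9 ± 0.78 (SD, n = 12), at rank 12 of 320. The others followed with miR-195 at 26.9 ± 0.44, miR-15b at 27.4 ± 0.99, miR-497 at 28.4 ± 0.41, miR-322 at 28.8 ± 1.55 and miR-15a at 29.2 ± 2.44 (SD, n = 12 each). miR-16 came before miR-195 on 12 of 12 arrays, by 4.09 ± 0.64 cycles (SD, n = 12). The neighbours further down the order were not separated beyond their spread, with miR-195 before miR-15b on 7 of 12 arrays, miR-497 before miR-322 on 6 and miR-322 before miR-15a on 7. miR-15b came before miR-497 on 10 arrays, by 0.996 ± 1.21 cycles (SD, n = 12). These are raw Ct values of different assays, and their order is not an order of copy number.

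**Figure D1:**
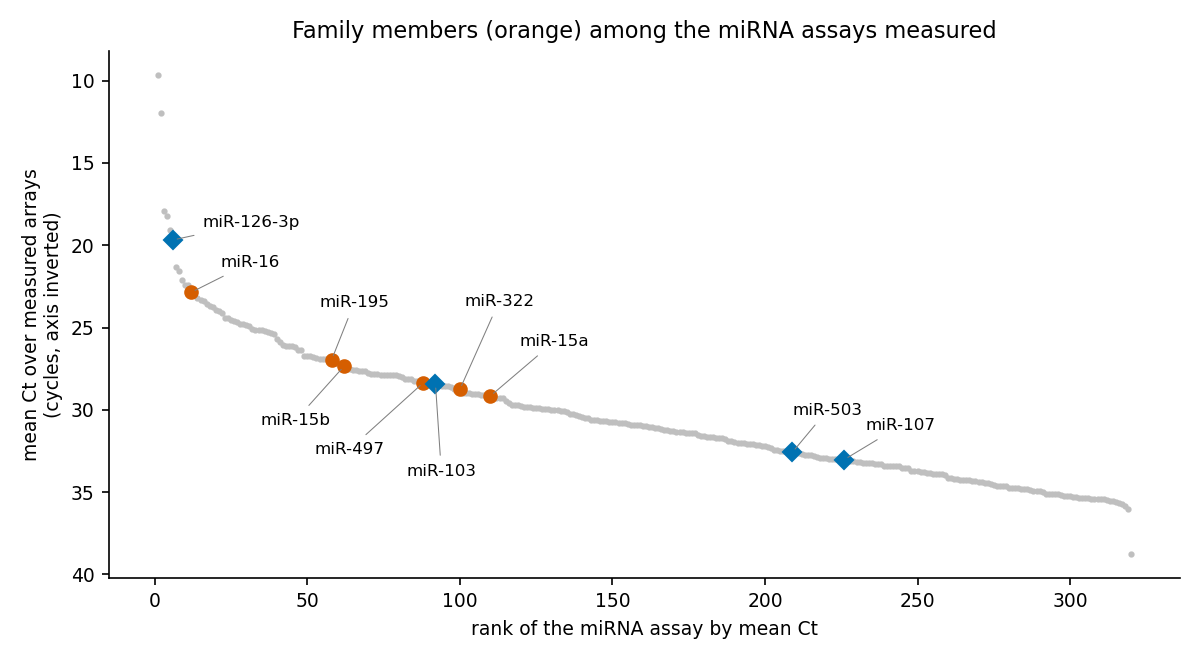
Mean Ct over the arrays on which each of 320 miRNA assays was measured, against its rank, with the vertical axis inverted so that more RNA lies higher. The 6 family members are orange circles, with miR-16 at rank 12 and the others between ranks 58 and 110, and the related miR-503, miR-103 and miR-107 and the endothelial miR-126-3p are blue diamonds.

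By the SD of Ct, miR-15a was the most variable member and miR-497 the least. miR-15a is the Dleu2 partner of miR-16 and was read at Ct 29.2, 31.4, 26.0 and 27.8 on control arrays 4, 7, 10 and 13. It was read at 28.0, 31.9, 27.2 and 27.5 on Tri-DAP arrays 5, 8, 11 and 14, and at 30.2, 34.5, 27.2 and 29.0 on MDP arrays 6, 9, 12 and 15. The latest reading of each group came from an array numbered 7 to 9, and the groups overlapped. The range was 8.44 cycles, and of 40 other assays that were complete on the 12 arrays and lay within 1 cycle of its mean Ct, 2 had a larger SD than its 2.44, against a median SD of 0.714.

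miR-16 ranged over 2.67 cycles. Its Ct was 23.4, 23.3, 22.4 and 22.4 on control arrays 4, 7, 10 and 13, 23.0, 24.3, 21.7 and 22.4 on Tri-DAP arrays 5, 8, 11 and 14, and 23.1, 23.8, 22.0 and 22.5 on MDP arrays 6, 9, 12 and 15. All 6 readings from arrays 10 to 15 were earlier than all 6 from arrays 4 to 9. miR-15b, the Smc4 partner of miR-16, was read at 27.8, 28.3, 26.4 and 26.5 on the control arrays, at 27.6, 29.1, 26.4 and 27.0 on the Tri-DAP arrays, and at 27.7, 28.7, 26.0 and 26.9 on the MDP arrays, in the same order of numbers. Its readings split by label number in the same way as those of miR-16, and the 3 groups overlapped for both.

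miR-195 and miR-497, which are transcribed from neighbouring hairpins on chromosome 11, were the steadiest of the family on the Ct scale. miR-195 was read at 27.1, 26.5, 27.0 and 27.0 on control arrays 4, 7, 10 and 13, at 26.7, 27.4, 26.0 and 27.3 on Tri-DAP arrays 5, 8, 11 and 14, and at 26.8, 27.6, 26.7 and 27.3 on MDP arrays 6, 9, 12 and 15. miR-497 was read at 28.0, 28.4, 28.4 and 29.3 on the control arrays, at 28.2, 28.3, 28.2 and 28.9 on the Tri-DAP arrays, and at 27.8, 28.2, 28.5 and 28.2 on the MDP arrays. Of the other assays within 1 cycle of their mean Ct, 27 of 35 had a larger SD than miR-195 and 40 of 45 a larger SD than miR-497.

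miR-322, the mouse counterpart of human miR-424, varied more. It was read at 29.6, 30.5, 27.6 and 26.9 on control arrays 4, 7, 10 and 13, at 29.4, 31.6, 27.2 and 27.2 on Tri-DAP arrays 5, 8, 11 and 14, and at 29.3, 30.2, 27.9 and 27.7 on MDP arrays 6, 9, 12 and 15. Within each group the arrays numbered 10 and above read at least 1 cycle earlier than those numbered 9 and below, and the groups overlapped.

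**Figure D2:**
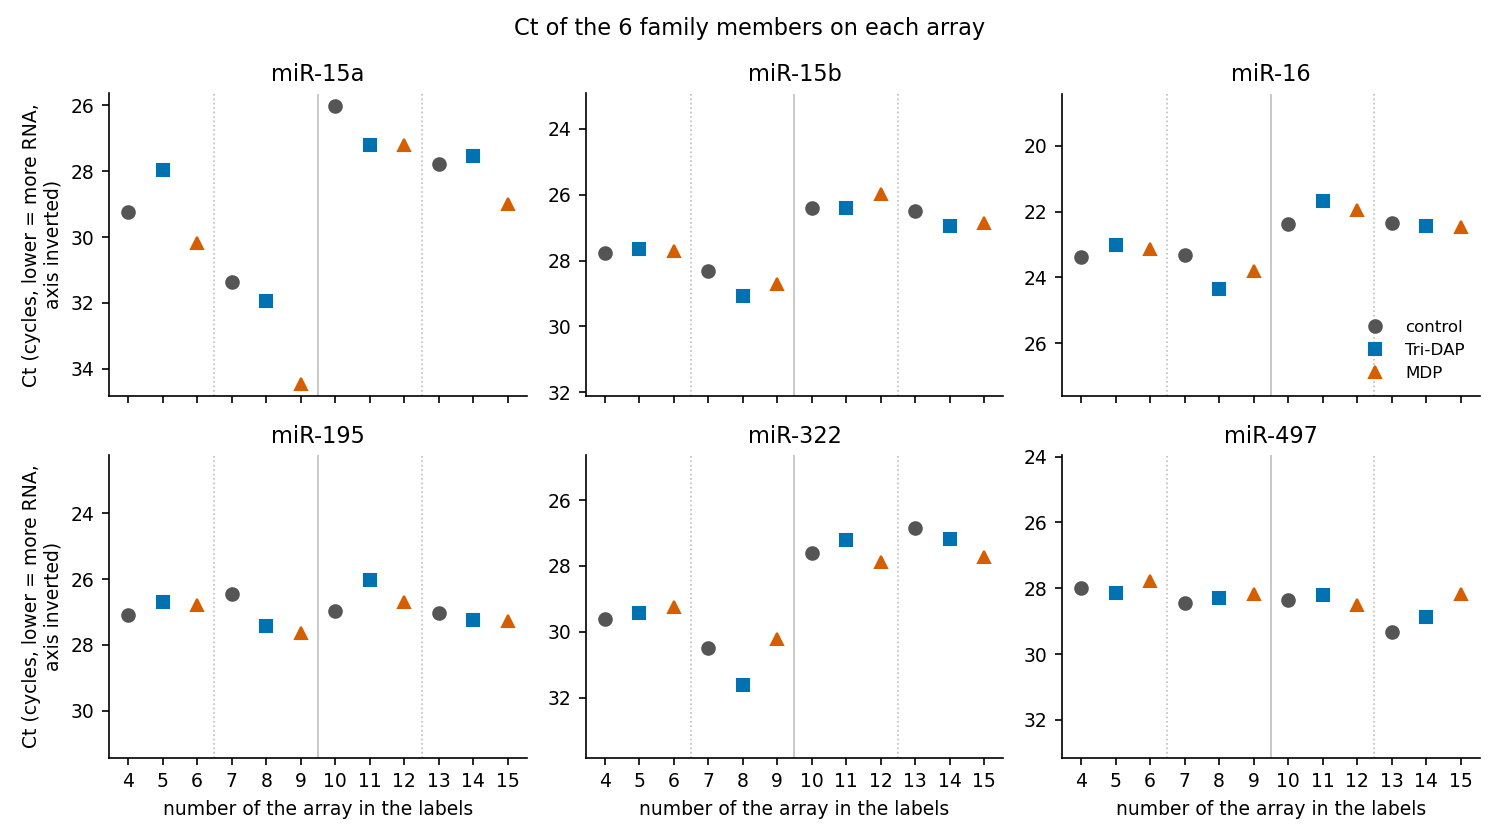
Ct of each family member on each of the 12 arrays, placed by the number of the array in the labels, with the axis inverted and of the same length in every panel. Marker shape and colour give the group, dotted lines part sets of 3 consecutive numbers and the solid line parts numbers 4 to 9 from 10 to 15. miR-15b, miR-16 and miR-322, 3 of 6 members, have no overlap across the solid line, beside 35 of 174 assays (20.1%), and miR-15a spans 8.44 cycles.

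No family member was called after either stimulation. For the comparisons, values are log2 levels relative to U6, and the call was an unadjusted p below 0.05 in one limma fit over the 12 arrays. In each comparison 0 of 6 members were called, and 0 were called after Benjamini-Hochberg adjustment over all miRNAs tested. The smallest adjusted p of a member was 0.998 by limma, and all 18 exact permutation tests over the arrays, two-sided and with a smallest possible p of 0.029, had a p adjusted over the 18 of 1. The groups of arrays overlapped for every member in every comparison, as they did for all 181 assays measured on all 8 arrays of each comparison (0.0% without overlap).

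After Tri-DAP, all member differences were under 0.4 in size. 4 of 237 miRNAs tested were called (1.69%), none of them a member. miR-15b differed most, at −7.98 ± 0.51 against −7.61 ± 0.60 in control cells (SD, n = 4 each), a difference of −0.37 with an SE of 0.56 and a 95% interval of −1.59 to 0.84 (limma adjusted p = 0.998). The main member by signal, miR-16, was at −3.34 ± 0.60 against −3.21 ± 0.27 (SD, n = 4 each), a difference of −0.13 with an interval of −1.23 to 0.97. The differences of miR-322, miR-15a, miR-195 and miR-497 were −0.34, −0.17, −0.08 and 0.03. 5 of the 6 members lay below control, beside 75.1% of all miRNAs tested, and the members' median of −0.15 stood beside −0.24 for all tested. Relative to the array mean, taken over the 174 assays complete on the 12 arrays, the median of all tested was 0.01 and 2 of 6 members lay below control, so the direction of miR-15a, miR-16 and miR-195 turned with the reference.

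After MDP, miR-15a had the largest difference of the family, and it did not pass the test. 3 of 244 miRNAs tested were called (1.23%), none of them a member. miR-15a was at −9.97, −14.45, −8.50 and −9.28 on MDP arrays 6, 9, 12 and 15, against −9.40, −11.33, −6.76 and −8.35 on control arrays 4, 7, 10 and 13. The MDP mean was −10.55 ± 2.67 and the control mean −8.96 ± 1.92 (SD, n = 4 each), a difference of −1.59 with an SE of 1.24 and an interval of −4.27 to 1.09 (limma p = 0.22, exact permutation p = 0.40). That is 0.332 of the control level, and the interval reaches from 0.0519 to 2.13 of it. Array MDP 9 decided most of the size, since without it the difference was −0.29, and without array control 10 it was −0.86. In each set of consecutive label numbers the MDP array lay below the control array, by 0.57 in arrays 4 to 6, 3.12 in arrays 7 to 9, 1.74 in arrays 10 to 12 and 0.93 in arrays 13 to 15, though the labels do not state such sets. With these sets as a replicate block the difference had an SE of 0.73 and a limma p of 0.0504, and deviations of the control and the MDP array of one set correlated at 0.30 to 0.83.

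The other 5 members lay closer to control after MDP. miR-16 differed by 0.02, with an interval of −1.07 to 1.11, miR-15b by −0.04, miR-322 by −0.12 and miR-195 by −0.19. miR-497 was higher at −8.49 ± 0.94 against −8.89 ± 0.78 (SD, n = 4 each), by 0.39 with an interval of −1.39 to 2.18 (exact permutation p = 0.54). 4 of 6 members lay below control, beside 54.1% of all miRNAs tested, and the members' median was −0.08, beside −0.02 for all tested.

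Between MDP and Tri-DAP, 7 of 241 miRNAs tested were called (2.9%), again without a member. miR-15a was lower after MDP by −1.42, with an interval of −4.11 to 1.28 (exact permutation p = 0.46), and by −0.12 without array MDP 9. The other members differed by between −0.11, for miR-195, and 0.36, for miR-497. 2 of 6 members lay below Tri-DAP, beside 25.3% of all tested. Relative to U6, each of the 18 intervals of the members held a difference of 1 on the log2 scale, upward or downward, and none was narrow enough to leave out a 2-fold change both ways. Relative to the array mean, the intervals of miR-16 did leave it out both ways. They were −0.71 to 0.92 after Tri-DAP, −0.76 to 0.88 after MDP and −0.86 to 0.77 for MDP against Tri-DAP.

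**Figure D3:**
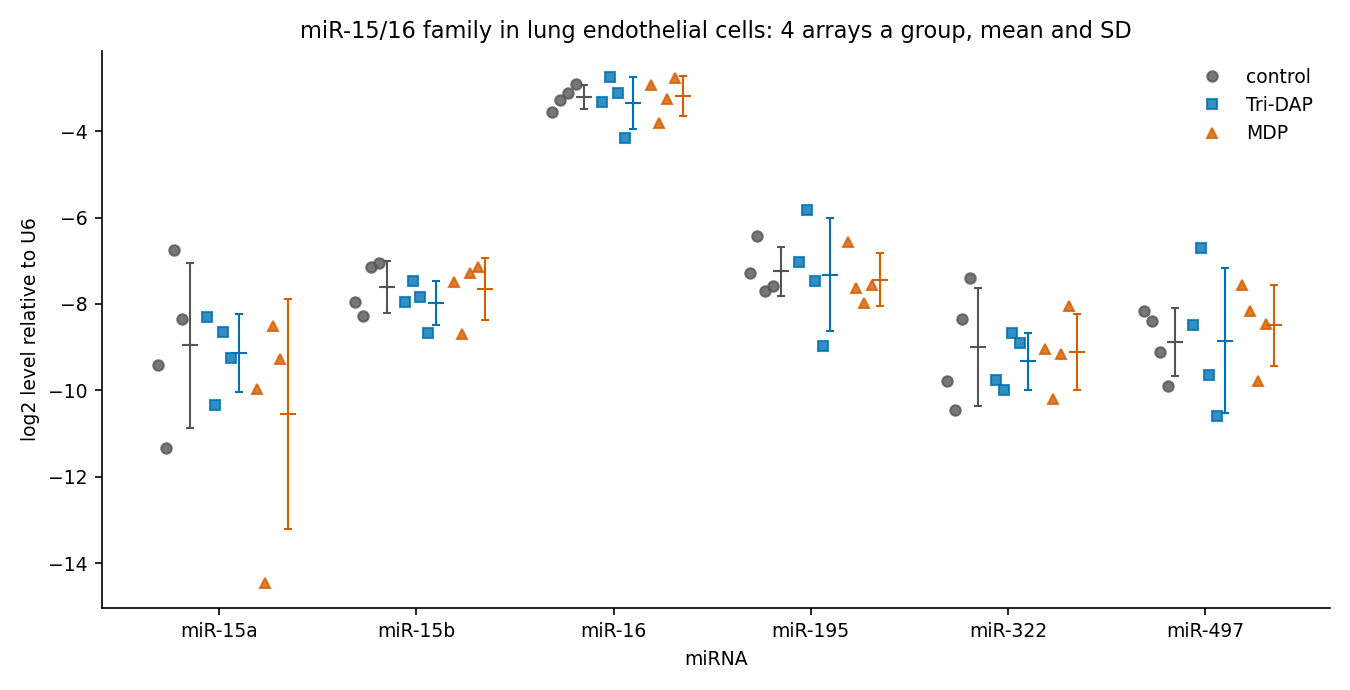
Log2 level relative to U6 of each family member, with 1 point per array (4 per group) and the mean and SD of the group beside the points. The groups overlap for every member, and the low MDP point of miR-15a, at −14.45, is array MDP 9.

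**Figure D4:**
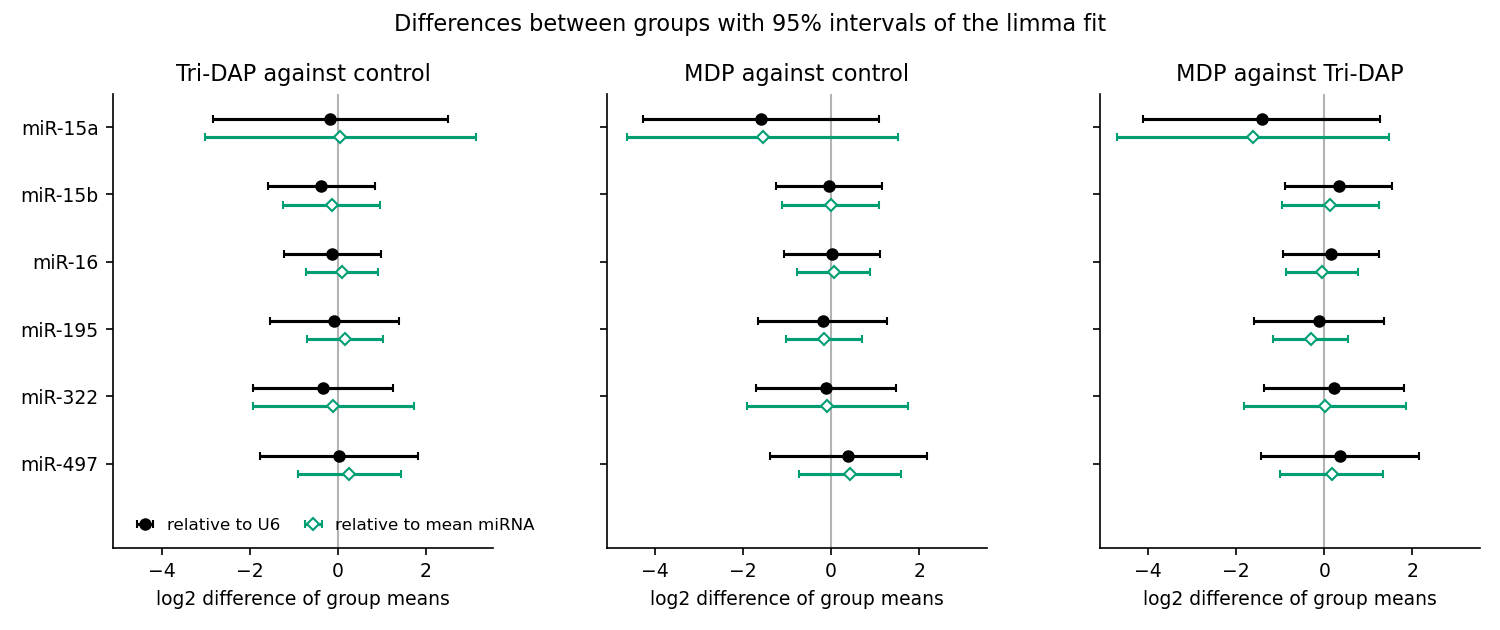
Log2 difference of the group means for each member and comparison with its 95% interval from the limma fit, relative to U6 (black circles) and relative to the array mean over the 174 complete assays (green diamonds). All intervals hold 0, and those of miR-15a are the widest.

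Differences between members on one array do not depend on a reference RNA, and 4 pairs that share a transcript or cluster were compared. The log2 of miR-15b over miR-16 was the steadiest, at −4.50 ± 0.32 over all arrays (SD, n = 12). It was −4.40 ± 0.43 in control cells, −4.64 ± 0.10 after Tri-DAP and −4.47 ± 0.36 after MDP (SD, n = 4 each). miR-15a over miR-16 was looser, at −6.30 ± 1.84 over all arrays, from −3.64 on array control 10 to −10.64 on array MDP 9. miR-15a was thus read between 3.64 and 10.64 cycles after miR-16, and the group means were −5.75 ± 1.82 in control cells, −5.80 ± 1.23 after Tri-DAP and −7.36 ± 2.31 after MDP.

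miR-195 over miR-497 was 1.64 ± 0.63 in control cells, 1.53 ± 0.53 after Tri-DAP and 1.06 ± 0.53 after MDP (SD, n = 4 each), and miR-195 was read before miR-497 on every array. miR-322 over miR-503 was 3.59 ± 0.60, 3.59 ± 0.35 and 4.27 ± 1.19 in the same order of groups. None of the 12 differences between groups in these 4 pairs passed the exact permutation test, with the lowest p at 0.23, for miR-195 over miR-497 after MDP against control, and adjusted p over the 12 from 0.64 to 1. Without array MDP 9 the difference of miR-15a over miR-16 between MDP and control was −0.52 rather than −1.61.

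A larger difference within the family followed the label numbers. Each run of numbers holds 2 arrays of every group, so the groups are balanced over it, and the split at number 10 was chosen after the values were seen and is given without a test. The values in this paragraph are log2 levels relative to the array mean over the 174 complete assays. miR-15a was at −1.83 ± 2.01 on arrays 4 to 9 and 0.94 ± 1.08 on arrays 10 to 15 (SD, n = 6 each), higher by 2.76. miR-322 was higher by 2.05, miR-15b by 1.05 and miR-16 by 0.65 on arrays 10 to 15, while miR-195 and miR-497 were lower there, with differences of −0.49 and −1.08. Among all 174 assays these differences rank 6, 8, 21, 36, 123 and 158 from the highest. The ranges of the 6 and 6 arrays did not overlap for miR-15b, miR-16, miR-322 and miR-497, 4 of 6 members, beside 32 of 174 assays (18.4%), and those of miR-15a and miR-195 overlapped. The difference of miR-195 was smaller than the median size over all assays, 0.55, where the median difference was −0.14.

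The size of these differences, and for miR-195 the direction, moved with the scale. By raw Ct, miR-195 was read slightly earlier on arrays 10 to 15, at 26.87 against 27.02, while miR-497 was read later, at 28.57 against 28.14. Relative to U6, where the median difference of all 174 assays was −0.74, miR-16 hardly differed, at −3.22 ± 0.50 on arrays 10 to 15 against −3.27 ± 0.39 on arrays 4 to 9 (SD, n = 6 each). On that scale miR-15a, miR-322 and miR-15b were higher by 2.17, 1.45 and 0.45, miR-195 and miR-497 differed by −1.09 and −1.67, and the ranges overlapped for all 6 members, beside 21 of 174 assays without overlap. miR-15a, miR-322 and miR-15b were higher and miR-497 lower on arrays 10 to 15 on all 3 scales.

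The summed level of the mural and fibroblast miRNAs split by the same numbers without overlap. The ranges of the other marker lists overlapped, that of the epithelial list with a higher median on arrays 10 to 15. Of the mural and fibroblast miRNAs, miR-145 was higher on arrays 10 to 15 by 5.12, the highest of the 174 assays, miR-214 by 3.59, miR-143 by 2.89 and miR-199a-3p by 1.94. The summed level of these 4 ranged from 1.20 to 2.75 on arrays 4 to 9 and from 3.57 to 6.45 on arrays 10 to 15. The epithelial miR-429 was higher by 2.82, without overlap. The summed level of the 5 epithelial miRNAs ranged from −2.96 to 3.17 on arrays 4 to 9 and from 0.56 to 1.97 on arrays 10 to 15. The median of that sum was −0.70 on arrays 4 to 9 and 1.29 on arrays 10 to 15, and the 3.17 came from a control array. The 3 muscle miRNAs summed to between −5.72 and 0.97 on arrays 4 to 9 and between −6.34 and −0.77 on arrays 10 to 15, with 1 array in each run on which none was measured. The endothelial miR-126-3p and miR-126-5p differed by −0.72 and −1.11, with a summed level from 9.33 to 10.3 on arrays 4 to 9 and from 8.11 to 10.1 on arrays 10 to 15, and the 4 leukocyte miRNAs summed to between −0.97 and −0.01 and to between −1.44 and 0.10 in the same order. The part of these cells in the differences of the family members was not tested, and in RNA from a whole culture fewer cells of a type and less RNA per cell cannot be told apart.

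By the sets of 3 consecutive numbers, miR-322 ranked as miR-145 did, and the other members did not. miR-145 was at −1.10 on arrays 4 to 6, −3.13 on arrays 7 to 9, 1.05 on arrays 10 to 12 and 4.96 on arrays 13 to 15. In the same sets miR-322 was at −0.71, −1.42, 0.92 and 1.04, as high in the last set as on arrays 10 to 12 within its spread. miR-15a was at −0.41, −3.25, 1.67 and 0.20, miR-15b at 1.01, 0.65, 2.22 and 1.53, and miR-16 at 5.55, 5.52, 6.48 and 5.88. These 3 members were highest on arrays 10 to 12. miR-195 was at 1.86, 2.17, 1.93 and 1.12 and miR-497 at 0.75, 1.04, 0.13 and −0.49, both lowest on arrays 13 to 15, as was miR-126-3p.

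**Figure D5:**
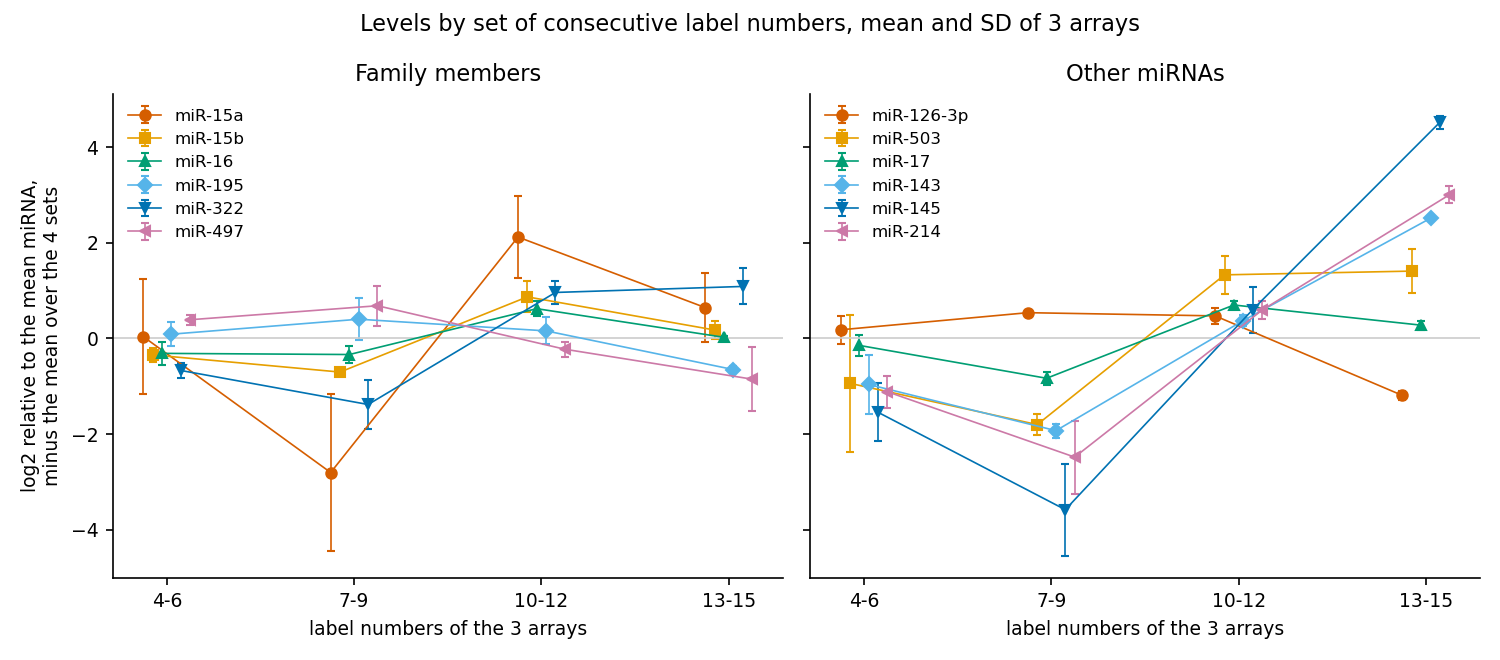
Log2 level relative to the array mean over the 174 complete assays, by set of 3 arrays with consecutive label numbers (1 of each group), after subtracting the mean of each miRNA over the 4 sets; points are means and bars SDs of 3 arrays, and lines join the sets of one miRNA. miR-15a, miR-15b and miR-16 peak in arrays 10 to 12, while the mural miR-143, miR-145 and miR-214 peak in arrays 13 to 15.

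The share of each member's variation between arrays that went with these sets depended on the scale for some members. For Ct it was 95.2% for miR-15b, 93.3% for miR-322, 87.2% for miR-16 and 84.7% for miR-15a, beside a median of 65.5% over the 174 assays, and 54.8% for miR-497 and 36.9% for miR-195. The share that went with the stimulation was 15.6% for miR-497, 10.1% for miR-15a and 6.37% or less for the others, beside a median of 3.65%. Relative to the array mean, the sets held 73.2% for miR-195 and 76.3% for miR-497, beside a median of 68.6%, and between 78.0% and 93.1% for the other 4 members. Relative to U6, they held 80.0% for miR-322, 67.2% for miR-15a, 64.2% for miR-497, 53.2% for miR-195, 22.8% for miR-15b and 1.32% for miR-16, beside a median of 52.5%, where U6 itself was read between 19.7 and 21.6 on arrays 4 to 9 and between 18.3 and 19.7 on arrays 10 to 15.

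Of the wider group that shares part of the seed, miR-503 had a mean Ct of 32.6, miR-103 of 28.4 and miR-107, on 10 arrays, of 33.0. 0 of these 3 were called in any comparison, with a median difference of −0.37 after Tri-DAP and −0.10 after MDP. miR-503 was at Ct 32.6, 34.9, 30.8 and 30.5 on control arrays 4, 7, 10 and 13, 32.8, 35.4, 31.2 and 30.4 on Tri-DAP arrays 5, 8, 11 and 14, and 35.1, 34.8, 31.0 and 31.3 on MDP arrays 6, 9, 12 and 15. Relative to the mean of the 174 it was higher on arrays 10 to 15 by 2.74, beside 2.05 for its neighbour miR-322, and miR-351 of the same cluster by 2.96. miR-103, whose seed is shifted, differed by −0.25.

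Families with other seeds served as a frame. Of the miR-17 seed family, which is known for promoting the cell cycle, 0 of 6 were called in each comparison, with a median difference of −0.27 after Tri-DAP and −0.06 after MDP. All 6 were higher on arrays 10 to 15, from 0.47 for miR-20b to 1.19 for miR-20a. Of the let-7 family 0 of 9 were called, with medians of −0.09 and 0.14, and 8 of 9 were lower on arrays 10 to 15. Over all 174 assays the median difference between these runs of arrays was −0.14 and the median size 0.55.

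The miRNAs that followed each member most closely from array to array were found by the SD of the within-array Ct difference over 12 arrays among 173 candidates, a measure that arrays of one set share. miR-15b was followed by miR-17 with an SD of 0.217 and miR-92a with 0.277, both of the miR-17-92 cluster. miR-16 was followed by miR-130a with 0.270 and miR-30c with 0.279, and miR-195 by miR-30e with 0.230 and miR-29c with 0.285. miR-497 was followed by miR-27a with 0.332 and miR-494 with 0.400, and miR-322 by miR-218 with 0.466 and miR-532-5p with 0.475. For miR-15a the closest were miR-18a at 1.09 and miR-503 at 1.29, beside a median of 2.28. The measure rises with the spread of the member itself, which was largest for miR-15a. By this measure no member had another member among its 2 closest. By Pearson's r of the levels relative to the array mean, over the same 12 arrays, miR-15b was the closest of the 173 to miR-16 (r = 0.899), and miR-126-5p the closest to miR-195 (r = 0.944). On that scale miR-17 was the closest to miR-15a (r = 0.897), followed by miR-18a (r = 0.896).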

How the data were processed

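RNA of 12 samples of mouse pulmonary endothelial cells was measured on TaqMan low-density arrays, 4 each for control, Tri-DAP and MDP, grouped by the treatment in the labels. The authors deposited Ct values in cycles, with 40 where no threshold was reached, and normalized values, Ct minus the mean of the 4 U6 wells, which are log2 values with the sign turned. Deposited fold changes are the comparisons of the authors and were not used, nor were 12 other per-sample columns. Wells at 40 were set missing. A miRNA with at least 2 values in each group entered one fit of 12 arrays without a block (limma 3.58.1, R 4.3.3), tested on simulated data. The simulated wells varied independently, without the sets of label numbers seen in the real arrays. Of miRNAs changed there by 2 on the log2 scale, between 59.7% and 62.6% were called, beside 5.11% to 5.41% of unchanged ones. Two-sided exact permutation tests used scipy 1.17.1. The number of arrays, 4 per group, limits the precision. Named were the 6 members, lists of related miRNAs and markers, and the 2 assays most like each member. The members were taken by assay name, with no measured value in the rule, but the family itself and the lists were chosen with earlier results of these data known. Alternatives covered the undetermined wells, the reference, the filter, the test, a block and each array left out. RefSeq sequences on GRCm38.p6 were matched by assay name.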

Additional observations from a re-analysis of the deposited data

Results flagged for a closer look

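In 66 groups of 4 arrays, 3 values stood apart from the others of their group by Dixon's test, where chance gives about 1 in 20 groups, or 3.3. miR-15a had a Ct of 31.9 on array Tri-DAP 8, later than the 27.2 to 28.0 of the other Tri-DAP arrays, and a log2 level relative to the array mean over the 174 complete assays of −2.25, beside 0.79 to 1.07. miR-195 was at 1.06 on that scale on array Tri-DAP 14, below the 2.11 to 2.28 of the other Tri-DAP arrays.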

How the results depend on the processing

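0 of 6 members were called in each comparison under all 28 alternatives, in 504 member fits with a smallest p of 0.0504 by limma, for miR-15a after MDP against control with sets of consecutive label numbers as a replicate block (0.22 without it). Deviations of arrays of one set correlated at 0.30 to 0.83 between control and MDP, 0.013 to 0.61 between MDP and Tri-DAP and −0.12 to 0.42 between control and Tri-DAP, with a median of 0.30 over the 12 pairs, beside −0.14 between arrays numbered 4 to 9 and those numbered 10 to 15. The labels state no sets and not every pair was over 0.1, so the fit without a block was kept. Variation between the sets thus stayed in the spread that its p-values and the permutation tests used. Where arrays of one set share an isolation, these tests can be less able to find a difference. With the block, 9 miRNAs were called after Tri-DAP, rather than 4, and 6 after MDP, rather than 3. The count of all miRNAs called ranged from 0 to 12 for Tri-DAP against control, 0 to 7 for MDP against control and 0 to 17 for MDP against Tri-DAP. 52 member fits turned direction, none larger than 1.05 in size, and the cause was not tested.

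Relative to the array mean, the differences that turned after Tri-DAP against control were 0.058 for miR-15a, 0.10 for miR-16 and 0.15 for miR-195, and miR-16 was at −0.045 for MDP against Tri-DAP. Without normalization miR-195 was at 0.037 after Tri-DAP. With the median of the U6 wells, miR-497 was at −0.079 after Tri-DAP, miR-15b, miR-195 and miR-322 were at 0.20, 0.056 and 0.13 after MDP, and miR-195 was at 0.24 for MDP against Tri-DAP. Without arrays Tri-DAP 8 and 14 together, miR-15a was at 0.49 and miR-497 at −0.18 after Tri-DAP.

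The splits by label number were chosen after seeing the data. On arrays 4 to 9 alone, the members' median after Tri-DAP was 0.41, with miR-15a at 1.05, miR-15b at 0.40, miR-16 at 0.37, miR-195 at 0.43 and miR-322 at 0.23. On those arrays miR-15b and miR-322 were at 0.016 and 0.49 after MDP, and miR-15b, miR-16 and miR-497 at −0.39, −0.33 and −0.27 for MDP against Tri-DAP. On arrays 10 to 15 alone, the median after Tri-DAP was −0.77, with miR-497 at −0.62, and miR-15a and miR-195 were at 0.058 and 0.45 for MDP against Tri-DAP. Of the pairs on one array, arrays 4 to 9 turned miR-15a over miR-16, miR-15b over miR-16 and miR-322 over miR-503 after Tri-DAP, to 0.68, 0.030 and −0.14, and miR-15b over miR-16 to −0.051 for MDP against Tri-DAP. Arrays 10 to 15 turned miR-195 over miR-497 to 0.045 after Tri-DAP, and miR-322 over miR-503 to −0.10 after MDP and −0.25 for MDP against Tri-DAP.

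With each array left out in turn, the differences after Tri-DAP ranged from −0.97 to 0.56 for miR-15a, −0.33 to 0.14 for miR-16, −0.58 to 0.47 for miR-195, −0.82 to 0.19 for miR-322 and −0.69 to 0.61 for miR-497. After MDP they ranged from −2.38 to −0.29 for miR-15a, −0.26 to 0.30 for miR-15b, −0.12 to 0.23 for miR-16, −0.48 to 0.082 for miR-195 and −0.60 to 0.41 for miR-322. For MDP against Tri-DAP they ranged from −0.12 to 0.36 for miR-16, −0.66 to 0.39 for miR-195, −0.14 to 0.58 for miR-322 and −0.22 to 1.08 for miR-497. Pairs that turned were miR-15a over miR-16, from −0.815 to 0.66, miR-195 over miR-497, from −0.36 to 0.12, and miR-322 over miR-503, from −0.17 to 0.28, after Tri-DAP, and miR-15b over miR-16, from −0.27 to 0.075, after MDP.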

Other observations

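The miR-542 and miR-450 assays of the miR-322 cluster were read late. miR-542-3p was measured on all 12 arrays at a mean Ct of 34.0, miR-542-5p on 9 at 35.3, miR-450a-5p on 10 at 33.2 and miR-450b-5p on 3 at 34.7. miR-351 was read earlier, on 12 arrays at 30.5, and a rat assay of the same name was higher on arrays 10 to 15 by 1.86, beside 2.96 for the mouse assay. 0 of the 5 cluster assays tested were called in each comparison, with median differences of −0.48 after Tri-DAP and −0.70 after MDP.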
